A study of Homo sapiens with 6 samples.

Results

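Store-operated calcium entry was followed through the 5 genes that encode its core machinery, ORAI1, ORAI2, ORAI3, STIM1 and STIM2, among 24551 genes listed in the deposited tables. The 5 genes were taken as a family and were chosen with their values in these libraries already known, so their levels and changes are given as descriptions, with no test. All 5 passed the filter used here, a mean over the 6 libraries of 1 FPKM or more, which 11865 of the genes passed. ORAI1, ORAI2, ORAI3 and STIM2 each had a row of their own. STIM1 was listed only in a row shared with MIR4687, a microRNA hairpin that lies inside the STIM1 gene, and every STIM1 value below is the value of that combined row.

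RNA-Seq was performed on 6 libraries of polyadenylated RNA from DU145 and 769-P cells. DU145 is a prostate carcinoma line derived from a brain metastasis, and 769-P is a renal cell adenocarcinoma line. Each line gave 3 libraries, from cells transfected with a negative control siRNA (NC), with SPOP siRNA 1 or with SPOP siRNA 2, with no other agent or allele named in the labels. SPOP is the substrate-binding adaptor of a CUL3 ubiquitin ligase, and the study asked what its loss does in prostate and in kidney cancer cells. The 2 siRNA libraries of a line serve as its replicates, the control of each line has none, and nothing in the labels says that the cultures were separate. The spread between siRNAs may therefore be technical, and each line stands for itself alone as a model of its tissue.

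Store-operated calcium entry refills the endoplasmic reticulum (ER) after calcium has been released from it. STIM1 and STIM2 span the ER membrane and sense its calcium content with a luminal EF hand. When the store empties they cluster at junctions with the plasma membrane, where they open channels built from ORAI subunits. ORAI1 is the classical pore of this current. ORAI2 can assemble with ORAI1 and lower the current, and ORAI3 forms store-operated channels in some cancer cells and also joins ORAI1 in a channel gated by arachidonic acid metabolites. STIM2 responds to smaller losses of store calcium than STIM1 and keeps resting calcium in range.

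The genes lie on 5 different chromosomes, all on the plus strand. In GRCh37 (hg19), ORAI1 spans chr12:122064414-122081124, ORAI2 chr7:102073553-102097272, ORAI3 chr16:30960389-30967782, STIM1 chr11:3875757-4114440 and STIM2 chr4:26859223-27027003. ORAI3, with the largest mean log2 change, and ORAI2, the other channel gene with a higher value in every knockdown library, are shown here by the 250 bases before their RefSeq start sites, in GRCh38.p14, plus strand, 5′ to 3′. The windows are chr16:30948818-30949067 for ORAI3 and chr7:102433325-102433574 for ORAI2. Capitals mark matches to the motifs searched.
ORAI3: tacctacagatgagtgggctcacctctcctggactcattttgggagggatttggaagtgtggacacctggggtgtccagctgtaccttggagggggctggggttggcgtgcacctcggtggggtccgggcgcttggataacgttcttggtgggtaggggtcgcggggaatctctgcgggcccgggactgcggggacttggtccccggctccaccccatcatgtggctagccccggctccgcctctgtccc
ORAI2: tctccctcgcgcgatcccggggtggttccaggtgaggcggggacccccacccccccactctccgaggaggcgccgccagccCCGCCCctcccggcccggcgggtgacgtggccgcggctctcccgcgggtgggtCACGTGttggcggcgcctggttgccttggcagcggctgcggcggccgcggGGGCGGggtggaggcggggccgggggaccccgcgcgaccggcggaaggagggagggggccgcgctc
The ORAI2 stretch held 81.2% G and C and 35 CpG dinucleotides, and the ORAI3 stretch 64.8% and 13.

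RefSeq windows of 300 bases (250 before the start and 50 after it) were found for 4 of the 5 genes, 7 windows in all, and none was found for ORAI1. Each was searched on both strands for the NFAT core GGAAA, for the GC box GGGCGG, for the CCAAT box, for the TATA box TATAAA, for the E-box CACGTG and for the AP-1 site TGANTCA, none of which contains another, though neighbouring GC boxes can overlap. The ORAI3 window held none of the 6, although 61.2% of 35114 RefSeq windows held GGAAA and 45.0% held GGGCGG. The ORAI2 window held 2 GC boxes and 1 CACGTG, a word found in 7.26% of all windows. The STIM2 window held 2 GC boxes and 1 CCAAT box, which 34.6% of windows held. The 4 STIM1 windows, which partly overlap, held 8, 0, 2 and 9 GC boxes, 3 of them held 1 GGAAA each and 1 held a CCAAT box. TATAAA (11.5% of all windows) and TGANTCA (7.71%) were absent from all 7. Over the whole 300 bases ORAI2 had a G and C content of 81.7%, above the median of 58.7%, and ORAI3 had 65.7%. These matches describe letters only, and binding was not measured.

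The knockdown and the identity of the cells were examined first. DU145 cells held 16.1 FPKM of SPOP in the control, 2.77 with siRNA 1 and 2.96 with siRNA 2. The 769-P libraries held 11.6, 1.53 and 1.39 FPKM in that order, so between 12.0% and 18.4% of the control value was left in the 4 knockdown libraries. The summed level of PAX8, PAX2, CA9 and CDH16, genes of kidney tubule and clear cell carcinoma, was 122 to 136 FPKM in 769-P and 1.40 to 1.63 in DU145, but CA9 was listed at 0 in all 3 769-P libraries. KLK3, KLK2 and HOXB13, markers of prostate luminal cells, did not exceed 0.312 FPKM in DU145. KRT8, KRT18, CDH1 and EPCAM, genes of epithelium, summed to 859 to 1122 FPKM in DU145 and 462 to 570 in 769-P, where CDH1 did not exceed 0.0977. Markers of leukocytes, endothelium and fibroblasts summed to at most 0.128 FPKM. FPKM keeps no read count. Ratios of low values placed the depths at 0.683 to 1.41 times that of the 769-P control. By this estimate the DU145 control stood at 1.17, and its siRNA 1 and siRNA 2 libraries at 0.693 and 0.683. Depth and knockdown thus cannot be told apart in DU145. Olfactory receptor genes, of which 387 were listed, serve as a measure of background. Of these, 303 were above 0 in the DU145 control (mean 0.347 FPKM) and 252 in the 769-P siRNA 2 library (mean 0.228 FPKM), compared with 4 to 6 in each of the others. The DU145 control enters every DU145 change below, and the part of this background in them was examined only by subtracting it.

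**Figure D1:**
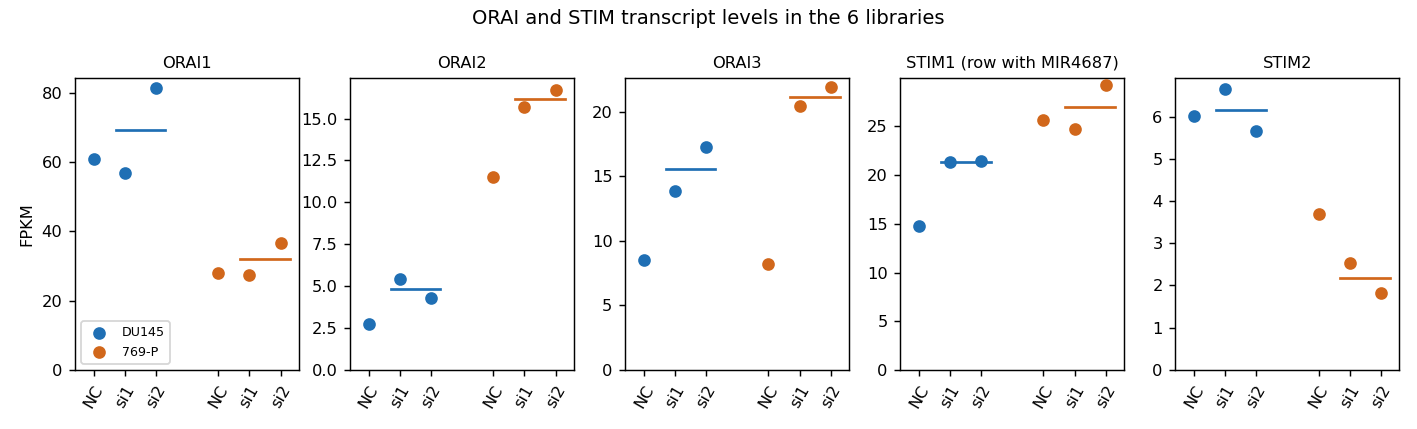
FPKM of each gene (y axis, linear, from 0, a scale of its own in each panel) in the control (NC) and the siRNA 1 (si1) and siRNA 2 (si2) libraries of DU145 (blue) and 769-P (orange). Each point is 1 library and the line is the mean of the 2 siRNAs. ORAI3 lay above its control with both siRNAs in both lines, and ORAI1 lay on both sides of it.

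ORAI3 had the largest mean log2 change of the 5 genes in each line, although ORAI2 changed more with siRNA 1 in DU145. The 769-P control had 8.21 FPKM, and the knockdown libraries 20.4 with siRNA 1 and 21.9 with siRNA 2, a knockdown mean of 21.1 ± 1.04 (SD, n = 2 siRNAs). In DU145 the control had 8.51 FPKM, siRNA 1 had 13.8 and siRNA 2 had 17.3, with a mean of 15.6 ± 2.45 (SD, n = 2). All 4 knockdown libraries therefore lay above both controls, and the controls of the lines were nearly alike, with a DU145 to 769-P ratio of 1.04. As linear ratios the knockdown libraries stood at 2.49 and 2.67 times the control in 769-P and at 1.62 and 2.03 times in DU145. In bulk RNA a higher share of expressing cells and more RNA per cell cannot be told apart.

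On the log2(FPKM + 1) scale, which understates changes of low genes, ORAI3 rose by 1.22 and 1.31 in 769-P (mean 1.27, SD 0.068) and by 0.64 and 0.94 in DU145 (mean 0.79, SD 0.21). A gene was counted as past 1.5-fold when it changed by at least 0.58 on this scale in 1 direction with both siRNAs. ORAI3 was the only 1 of the 5 genes past it, higher in both lines. The same threshold was passed upwards by 4.72% of all 11865 genes in DU145, by 3.6% in 769-P and by 0.868% in both lines. No member was past it downwards, as 1.19% of all genes were in DU145 and 3.73% in 769-P. The DU145 split of 560 genes higher and 141 lower was 341 and 242 with median-centring and 819 and 88 after subtraction of the olfactory receptor mean. Among all genes the 2 ORAI3 changes ranked at the 98.7th and 99.5th percentiles in 769-P, and at the 90th and 96.9th in DU145. Because ORAI3 was picked with these values known, the percentages and ranks place it among the genes and do not test it.

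The DU145 call was close to the threshold. The siRNA 1 change of 0.64 was the value just inside it, and the values just outside were the smaller changes of STIM1 (0.50) and ORAI2 (0.49) in the same line. All genes together had a median change in DU145 of 0.074 (siRNA 1) and 0.12 (siRNA 2). Relative to these medians ORAI3 changed by 0.57 and 0.82, and was then no longer past 1.5-fold in DU145. With the olfactory receptor mean subtracted from every library it changed by 0.69 and 1.0 there. In 769-P, where the medians were 0 and -0.059, ORAI3 passed under every scaling tried.

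**Figure D2:**
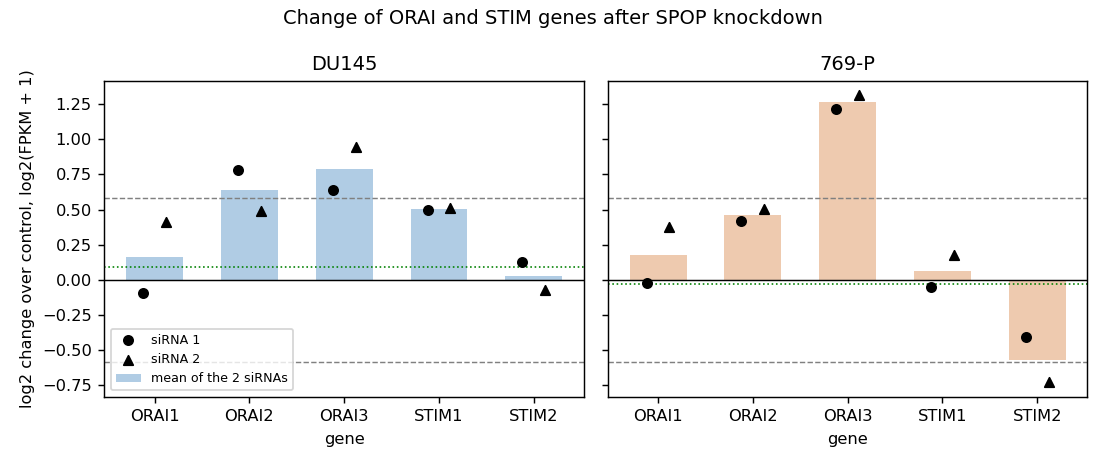
Change of each gene over the control of its line on the log2(FPKM + 1) scale (y axis) for siRNA 1 (circle) and siRNA 2 (triangle), with bars from 0 to their mean. Dashed lines mark 1.5-fold and the green dotted line the median of all 11865 genes; ORAI3 is the 1 gene with both points above the upper dashed line, in each line.

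ORAI1, the pore subunit of the classical current, had the highest level of the family and no common direction. DU145 had 60.8 FPKM in the control, 56.8 with siRNA 1 and 81.4 with siRNA 2. 769-P had 27.9 FPKM in the control, 27.5 with siRNA 1 and 36.5 with siRNA 2. In each line siRNA 1 lay slightly below the control and siRNA 2 above it, so the control sat within the range of the knockdown libraries. The changes were -0.10 and 0.41 on the log2 scale in DU145 (mean 0.16, SD 0.36) and -0.02 and 0.38 in 769-P (mean 0.18, SD 0.28), and in both lines the SD exceeded the mean.

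ORAI2, which can lower the current when it joins ORAI1, was higher than the control in all 4 knockdown libraries without passing 1.5-fold with both siRNAs in either line. In 769-P the control had 11.5 FPKM, siRNA 1 had 15.7 and siRNA 2 had 16.7. In DU145, where it was the lowest of the 5 genes, the control had 2.74 FPKM, siRNA 1 had 5.44 and siRNA 2 had 4.26. The log2 changes were 0.42 and 0.50 in 769-P and 0.78 and 0.49 in DU145. With a pseudocount of 0.1 in place of 1 the DU145 changes became 0.96 and 0.62, past 1.5-fold with both siRNAs. After subtraction of the olfactory receptor mean they were 0.92 and 0.63, also past it, and relative to the median of all genes they were 0.71 and 0.37. The 3′ end of ORAI2 overlaps ALKBH4 on the opposite strand by 588 bases. An unnamed long noncoding RNA, for which no value was found, overlaps its 5′ end on the opposite strand by 1675 bases. Noncoding genes and pseudogenes overlap STIM1 and STIM2 as well. ALKBH4 had 8.49, 9.17 and 7.54 FPKM in the control, siRNA 1 and siRNA 2 libraries of 769-P and 11.8, 13.3 and 13.2 in those of DU145. Whether the reads were counted by strand is not given in the sources used here, so reads of these overlaps cannot be told apart.

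STIM1, the main ER calcium sensor, had higher values than the control in both DU145 knockdown libraries and no common direction in 769-P. The combined row had 14.8 FPKM in the DU145 control, 21.3 with siRNA 1 and 21.5 with siRNA 2. The 769-P control had 25.7 FPKM, and the row read 24.7 with siRNA 1 and 29.2 with siRNA 2, on both sides of it. The DU145 changes of 0.50 and 0.51 (mean 0.50, SD 0.006) were close to each other, below 1.5-fold, and 0.43 and 0.38 relative to the median of all genes. The 769-P changes were -0.06 and 0.18. The difference between the lines was not tested, since the gene was selected on these values.

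STIM2, the sensor of small store losses, had the lowest level of the 5 genes in 769-P. The 769-P control had 3.69 FPKM, siRNA 1 had 2.52 and siRNA 2 had 1.82, both below the control. DU145 had 6.0 FPKM in the control, 6.66 with siRNA 1 and 5.67 with siRNA 2, on both sides of it. On the log2 scale the 769-P values were -0.41 and -0.73 (mean -0.57, SD 0.23), and 1 of the 2 siRNAs was past 1.5-fold. In DU145 they were 0.13 and -0.07.

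Across the family, 3 of the 5 genes had both siRNAs above the control in DU145 (ORAI2, ORAI3 and STIM1) and 2 did in 769-P (ORAI2 and ORAI3). STIM2 in 769-P was the 1 case with both below, and the siRNAs lay on opposite sides of the control for the other 2 genes of each line. The median of the 5 mean changes was 0.50 in DU145, where the median of all genes was 0.091, and 0.18 in 769-P, where it was -0.029. The shares of all genes with both siRNAs on 1 side of the control were not computed, so the counts have no background beside them. These summaries cover 5 genes that were selected on the same values.

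The share of each channel in the summed ORAI FPKM shifted toward ORAI3. In 769-P ORAI3 made up 17.2% of ORAI transcripts in the control, 32.1% with siRNA 1 and 29.1% with siRNA 2. In DU145 it made up 11.8% in the control, 18.2% with siRNA 1 and 16.8% with siRNA 2. The ORAI1 share was lower in all 4 knockdown libraries. It was 58.6%, 43.2% and 48.6% in the control, siRNA 1 and siRNA 2 libraries of 769-P, and 84.4%, 74.7% and 79.1% in those of DU145. The ratio of ORAI1 to ORAI3 was 3.40 in the 769-P control and 1.35 and 1.67 after knockdown, and 7.15 in the DU145 control and 4.11 and 4.71 after knockdown. A shared scaling of a library cancels in these ratios.

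The ORAI2 share showed no common shift. It was 24.1%, 24.7% and 22.2% in 769-P and 3.80%, 7.16% and 4.14% in DU145, in the order control, siRNA 1 and siRNA 2. ORAI2 exceeded ORAI3 in the 769-P control, with a ratio of 1.40, and lay below it in both knockdown libraries, with ratios of 0.769 and 0.763. In DU145 ORAI3 exceeded ORAI2 in all 3 libraries. The summed ORAI level was 47.6, 63.6 and 75.1 FPKM in 769-P and 72.1, 76.0 and 103 in DU145, so both knockdown libraries were above the control in both lines. Unlike the ratios, a sum does not cancel a shared scaling of a library. The DU145 siRNA 1 sum was close to its control, in a library where the median log2 change of all genes was 0.074.

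**Figure D3:**
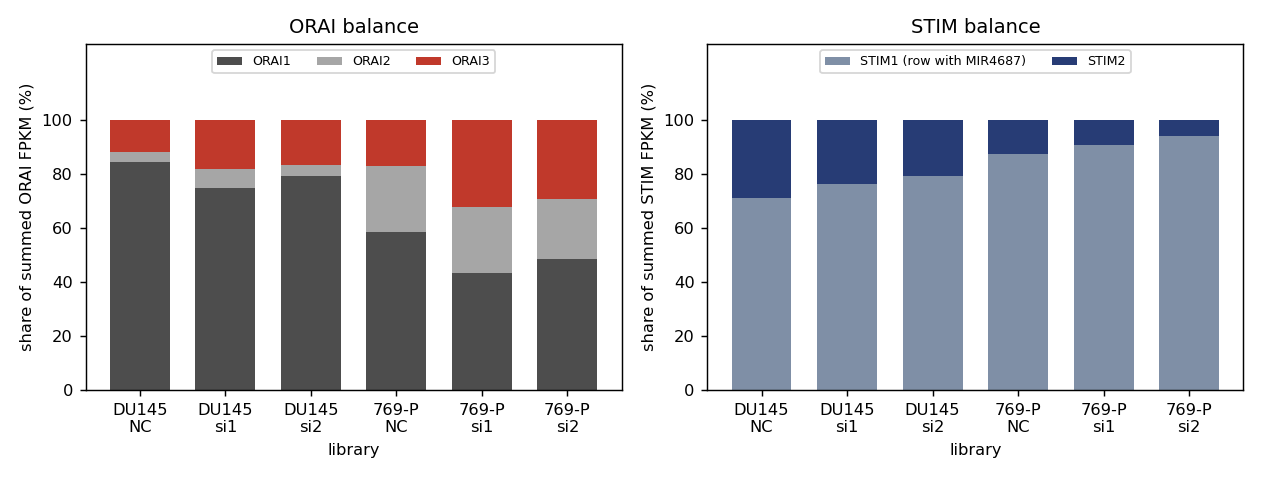
Share of each gene in the summed FPKM of the ORAI genes (left) and of the STIM genes (right), as stacked bars in percent for each of the 6 libraries. The ORAI3 share was 11.8% and 17.2% in the controls and 16.8% to 32.1% in the knockdown libraries, while the STIM2 share was lower than the control in all 4.

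Among the sensors STIM1 predominated in every library. STIM2 made up 28.9% of the summed STIM FPKM in the DU145 control, 23.8% with siRNA 1 and 20.9% with siRNA 2. Its share in 769-P was 12.5%, 9.27% and 5.87% in the same order. All 4 knockdown libraries were below their control. STIM1 was higher with both siRNAs in DU145, and STIM2 was lower with both in 769-P. With siRNA 2, STIM2 was also lower in DU145 (6.0 to 5.67 FPKM) and STIM1 also higher in 769-P (25.7 to 29.2 FPKM). The ratio of STIM1 to STIM2 was 2.46, 3.20 and 3.78 in DU145 and 6.97, 9.79 and 16.0 in 769-P. The summed STIM level was 20.8, 28.0 and 27.1 FPKM in DU145 and 29.4, 27.2 and 31.0 in 769-P. The ratio of channel to sensor transcripts was 1.62 in the 769-P control and 2.33 and 2.42 after knockdown. In DU145 it was 3.47 in the control, 2.72 with siRNA 1 and 3.79 with siRNA 2, on both sides of the control.

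The lines also differed in their family profile without knockdown. In the DU145 control the order of levels was ORAI1, STIM1, ORAI3, STIM2 and ORAI2, and in the 769-P control it was ORAI1, STIM1, ORAI2, ORAI3 and STIM2. After knockdown ORAI3 moved above ORAI2 in 769-P, and their siRNA libraries did not overlap. ORAI1 and STIM1 were neighbours in 769-P whose knockdown values overlapped (27.5 and 36.5 FPKM beside 24.7 and 29.2). STIM2 and ORAI2 were neighbours in DU145 whose knockdown values did not overlap but whose means, 6.16 ± 0.701 and 4.85 ± 0.833 FPKM (SD, n = 2), lay less than the sum of their SDs apart.

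ORAI1 was 2.18 times and STIM2 1.63 times as high in the DU145 control as in the 769-P control. ORAI2 was 4.19 times and STIM1 1.74 times as high in the 769-P control. For ORAI1 and STIM2 all 3 DU145 libraries lay above all 3 769-P libraries, a separation seen for 35.1% of all genes. For ORAI2 and STIM1 all 3 769-P libraries lay above, as they did for 21.2% of all genes. ORAI3 was the member whose lines overlapped.

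The nearest tested protein-coding gene on each side of each member was examined, 10 neighbours in all. Genes under the filter were passed over, so a neighbour need not be adjacent. Those of STIM2 were far from it, TBC1D19 at 101377 bp and PCDH7 at 3694987 bp. FBXL19, an F-box protein that binds CpG DNA, ends 284 bp before ORAI3 on the same strand. It had 20.3 FPKM in the 769-P control, 33.4 with siRNA 1 and 37.1 with siRNA 2, and 20.8, 32.5 and 25.6 FPKM in DU145. Its 4 knockdown libraries lay above both controls, as those of ORAI3 did. The share of all genes with this pattern was not computed, so it is no result about the locus. The FBXL19 changes were 0.69 and 0.84 in 769-P, past 1.5-fold with both siRNAs (adjusted p = 0.693 from limma). In DU145 they were 0.62 and 0.29, not past it with both, where the medians of all genes were 0.074 and 0.12. SETD1A, a histone H3 lysine 4 methyltransferase that starts 832 bp after ORAI3, had 12.2, 14.5 and 12.2 FPKM in 769-P and 18.3, 26.2 and 25.7 in DU145. An unnamed long noncoding RNA on the same strand spans ORAI3 in the annotation, so reads of the 2 could be shared.

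KDM2B, a histone demethylase whose gene lies 45485 bp before ORAI1, was the other neighbour past 1.5-fold. Thus 1 of the 10 neighbours was past it upwards in each line, beside 4.72% of all genes in DU145 and 3.6% in 769-P. A count of 1 among 10 is no result about the neighbours. KDM2B was past it in DU145 only. It had 3.95, 9.84 and 6.92 FPKM in the control, siRNA 1 and siRNA 2 libraries of DU145, with changes of 1.13 and 0.68 (adjusted p = 0.786 from limma), which median-centring put below 1.5-fold with siRNA 2. The 769-P values were 2.85, 6.32 and 4.62 FPKM. The neighbours of ORAI2 (PRKRIP1 and LRWD1), of STIM1 (RHOG and RRM1) and of STIM2 (TBC1D19 and PCDH7), and TMEM120B beside ORAI1, were not past 1.5-fold in either line. In limma, a linear model with moderated variances fitted over all genes, an adjusted p of 0.05 was passed by 0.135% of genes in DU145 and by 0.101% in 769-P, and by 0.169% in the contrast of the lines. None of the 10 neighbours was among them in DU145 or 769-P, with a smallest adjusted p of 0.786 and 0.693 from limma.

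Genes with the most similar profile were found by the Euclidean distance between log2(FPKM + 1) values over the 6 libraries, each gene centred on its own mean. CDKN2B, an inhibitor of the cyclin D kinases, was nearest to ORAI3, at a distance of 0.203 where the median gene lay at 1.65. It had 4.95, 12.8 and 12.3 FPKM in 769-P and 5.56, 7.78 and 10.7 in DU145. MPST, which makes hydrogen sulfide from mercaptopyruvate, and SIL1, a nucleotide exchange factor of the ER chaperone BiP, followed at 0.305 and 0.310. METTL23 (0.134) was nearest to ORAI1, and CRAT lay at 0.170. PRKAR1B (0.214), HDAC1 (0.241) and CNPPD1 (0.332) were nearest to ORAI2. NUS1 (0.159), NEK11 (0.168) and IPO13 (0.182) were nearest to STIM1. MAD2L1BP (0.135), EIF5 (0.141) and ARHGAP33 (0.159) were nearest to STIM2. These genes were selected for their likeness over 6 points.

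The wider calcium pathway was described with 106 genes in 7 lists, of which 62 passed the filter. Of these 62, 3 were past 1.5-fold upwards and 1 downwards in DU145, and 4 upwards and 4 downwards in 769-P. The shares of all genes, 4.72% upwards and 1.19% downwards in DU145 and 3.6% and 3.73% in 769-P, are the background for these counts and for those of each list below, where 1 or 2 genes of a short list are no result about the list. With median-centring the DU145 split was 1 upwards and 1 downwards, without PLCD3 and CABIN1, and VDAC1 was no longer past 1.5-fold in 769-P. In limma none of the 62 passed an adjusted p of 0.05, with smallest adjusted p of 0.715 in DU145 and 0.643 in 769-P, and 4 and 9 had an unadjusted p under 0.05. The median of their mean changes was 0.15 in DU145, with 0.091 for all genes, and -0.097 in 769-P, with -0.029 for all genes. The mean change of ORAI3 in 769-P was larger than that of each of the 62, while in DU145 ATP2C2 (1.20) and ASPH (-0.92) changed by more than ORAI3 (0.79).

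Among 14 tested regulators of store-operated entry, 1 was past 1.5-fold in each direction in each line, and the list median was 0.12 in DU145 and -0.08 in 769-P. ASPH, whose gene also encodes junctate, an ER protein that binds STIM1, had lower values in both lines. It had 114, 50.9 and 55.7 FPKM in 769-P and 231, 100.3 and 147 in DU145, past 1.5-fold in each (adjusted p = 0.685 and 0.774 from limma). ATP2C2, a Golgi calcium pump known to activate ORAI1 without store depletion, had 0.973 FPKM in the DU145 control and 3.13 and 3.94 after knockdown (adjusted p = 0.715 from limma), and in 769-P did not exceed 0.214 FPKM. CRACR2B, an EF-hand regulator of ORAI channels, had 3.19, 5.81 and 6.19 FPKM in 769-P and 9.62, 5.51 and 7.97 in DU145, past 1.5-fold upwards in 769-P. PDIA3, an ER oxidoreductase that acts on STIM1, had 98.5, 139 and 137 FPKM in DU145 and 117, 134 and 114 in 769-P. CAV1, the caveolae protein, had 183, 372 and 196 FPKM in 769-P, so its control was near siRNA 2, and 70.1, 67.4 and 93.0 in DU145.

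Phospholipase C makes the messenger that empties the store. All 5 tested members had both siRNAs above the control in both lines, with a list median of 0.28 in DU145 and 0.45 in 769-P. The share of all genes with both siRNAs above the control was not computed, so this count is no result about the list. Relative to the median of all genes PLCG1 in DU145 was not above it with siRNA 2 (0.06 beside 0.12). Listed members under the filter were not counted. Some of them lay below the control with both siRNAs, and PLCE1 in DU145 lay above it. PLCD3 was past 1.5-fold in both lines, with 41.0, 97.4 and 76.8 FPKM in 769-P and 29.5, 47.1 and 50.9 in DU145 (adjusted p = 0.643 and 0.786 from limma). PLCB4 was past it in 769-P, with 17.4, 37.1 and 30.8 FPKM (adjusted p = 0.693 from limma), and had 1.44, 1.89 and 1.98 in DU145. PLCG1, the enzyme under receptor tyrosine kinases, had 28.0, 43.1 and 34.8 FPKM in 769-P and 12.6, 15.1 and 13.2 in DU145.

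**Figure D4:**
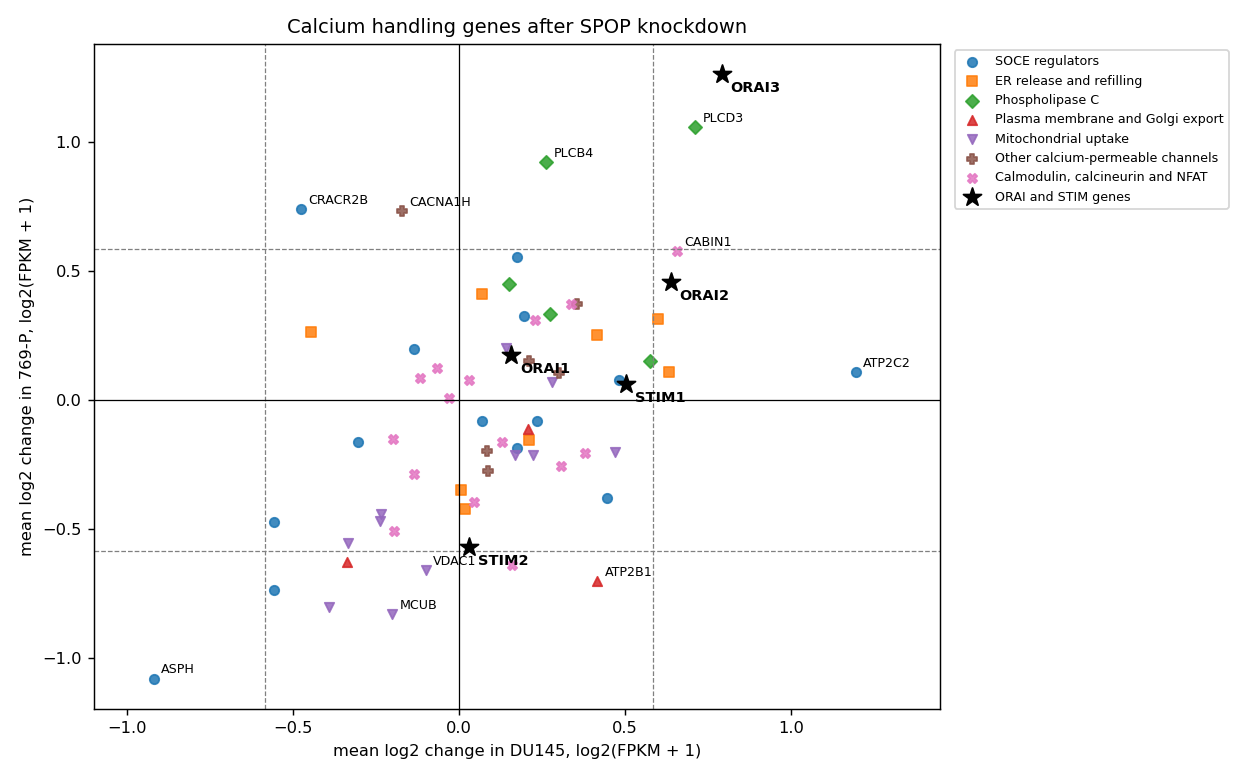
Mean change over the 2 siRNAs on the log2(FPKM + 1) scale in DU145 (x axis) and in 769-P (y axis) for the 62 tested calcium genes, coloured by list, and the 5 ORAI and STIM genes (stars). Dashed lines mark 1.5-fold on the mean, and named symbols are genes past 1.5-fold with both siRNAs in at least 1 line; ORAI3 and PLCD3 lie in the upper right corner and ASPH in the lower left.

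None of 8 tested genes of ER release and refilling was past 1.5-fold in either line, and the list median was 0.14 in DU145 and 0.18 in 769-P. CALR, the calcium-binding chaperone of the ER lumen, had 480, 598 and 596 FPKM in 769-P and 281, 381 and 478 in DU145, higher in all 4 knockdown libraries. TMBIM6, an ER calcium leak protein, had 237, 210.0 and 269 FPKM in DU145 and 292, 229 and 229 in 769-P, below the control with both siRNAs. Of 3 tested export genes, ATP2B1, a plasma membrane calcium pump, had 4.51, 2.61 and 2.18 FPKM in 769-P, past 1.5-fold downwards, and 7.27, 11.3 and 8.92 in DU145. ATP2C1, the Golgi pump, had 31.2, 25.0 and 33.0 FPKM in 769-P and 18.6, 20.9 and 22.5 in DU145. The export median was 0.21 in DU145 and -0.63 in 769-P.

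Of 11 tested genes of mitochondrial uptake, 2 were past 1.5-fold downwards in 769-P and none in DU145, with medians of -0.44 and -0.10. MCUB, the inhibitory subunit of the uniporter, had 12.8, 7.67 and 5.93 FPKM in 769-P and 16.6, 12.3 and 16.7 in DU145. VDAC1, a pore of the outer membrane, had 218, 135 and 139 FPKM in 769-P and 107, 86.4 and 115 in DU145. VDAC2 had 142, 107 and 102 in 769-P and 166, 123 and 162 in DU145. Of 6 tested other calcium-permeable channels, CACNA1H, a T-type calcium channel, was past 1.5-fold upwards in 769-P, with 2.11, 4.26 and 4.08 FPKM, and was at or below 0.278 in DU145. PIEZO1, a mechanically gated channel, had 56.1, 88.0 and 60.6 FPKM in 769-P and 54.3, 73.2 and 66.5 in DU145. TRPV1 was listed only in a row shared with SHPK, with 11.0, 12.3 and 11.4 in 769-P and 12.3, 14.5 and 16.4 in DU145. The channel medians were 0.15 in DU145 and 0.13 in 769-P.

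Of 15 tested genes of calmodulin, calcineurin and NFAT, which read the calcium signal, 1 was past 1.5-fold upwards in DU145 and none in 769-P, with medians of 0.05 and -0.15. That gene was CABIN1, an inhibitor of calcineurin, with 7.05, 12.0 and 11.4 FPKM in DU145 and 5.28, 10.3 and 6.77 in 769-P. CALM2 and CALM3, which encode the same calmodulin protein, had 297, 219 and 306 FPKM and 118, 103 and 140 in DU145, with the control inside the range of the siRNAs for both. In 769-P CALM2 had 313, 202 and 240 FPKM, below the control with both siRNAs, and CALM3 had 136, 141 and 146.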

How the data were processed

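Polyadenylated RNA of 6 libraries was sequenced as 100-bp paired-end reads. The authors aligned them with TopHat2 (hg19, at most 2 mismatches) and deposited FPKM values from Cufflinks, that is, fragments scaled to transcript length and to the mapped fragments of the library. The labels also list FastQC and cutadapt. Versions, annotation and strand use are not given in the sources used here. The paper's methods state 2 biological replicates per sample and another library kit than the labels, which give 1 library for each condition.

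Rows of the same symbol were summed, and 1 was added before log2. FPKM holds no counts, so no count test, interval or floor was computed, and a single value has no known precision. limma 3.58.1 in R 4.3.3 was fitted to 4 groups (eBayes with a trend, 2 residual degrees of freedom, Benjamini-Hochberg adjustment over 11865 genes), and it measures only the spread between siRNA libraries. It was used for the pathway lists and neighbours. The scripts were tested on simulated data with changes placed in DU145 only. Those changes were larger than any of a member or listed calcium gene, so the test does not cover changes near 1.5-fold. Python 3.11.15, pandas 2.3.3, numpy 2.4.6 and matplotlib 3.10.9 were used, with gene positions from GENCODE for GRCh37 and promoters from RefSeq.

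The members and lists were chosen with earlier results of these data known. Named genes are SPOP, the 5 members, their 3 nearest profiles and chromosomal neighbours, and from each list the genes past 1.5-fold and the 2 with the highest mean FPKM. Results for 3 of the genes named or used as markers are not reported here. Alternatives were a pseudocount of 0.1, median-centring, other filters, each siRNA alone or their mean, subtraction of the olfactory receptor mean, the highest row of a repeated symbol, and for limma quantile normalization, no trend and a replicate block.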

Additional observations from a re-analysis of the deposited data

Results flagged for a closer look

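In 13 of the 62 tested calcium genes, with no limit on size, every siRNA library of one line lay on the opposite side of its control from every siRNA library of the other. The share of all genes with this pattern was not computed, so the count is no result about calcium genes. Of the 21 tested calcium genes named in the text, 3 had this pattern. CRACR2B had mean changes of -0.48 in DU145 and 0.74 in 769-P on the log2(FPKM + 1) scale, a DU145 minus 769-P difference of -1.22. ATP2B1 had 0.42 and -0.70, a difference of 1.12. CACNA1H had -0.17 and 0.73, a difference of -0.90, and its DU145 values did not exceed 0.278 FPKM. That was below the olfactory receptor mean of the DU145 control, 0.347 FPKM. With the olfactory receptor mean subtracted from every library the mean CACNA1H change in DU145 was 0.17, so its opposite pattern was not kept. The limma test of the difference between the lines gave an adjusted p of 0.999 for each of the 3, so none was shown to differ. No ORAI or STIM gene had this pattern. Groups of 2 siRNA libraries are too small for a test of single outlying samples.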

How the results depend on the processing

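ORAI3, the only member past 1.5-fold, kept its direction under the alternatives. With either siRNA alone it had to, since both were past the threshold. Mean changes of other members changed sign. STIM2 in DU145 had 0.029, and -0.070 with median-centring. With siRNA 1 alone ORAI1 had -0.10 in DU145 and -0.02 in 769-P, where the means were 0.16 and 0.18. STIM1 in 769-P had a mean of 0.06, and -0.06 with siRNA 1 alone. The mean ORAI3 change in 769-P of 1.27 became 1.35 with a pseudocount of 0.1. The mean STIM1 change in DU145 of 0.50 became 0.53 with that pseudocount, 0.41 with median-centring and 0.54 after subtraction of the olfactory receptor mean. Counts moved more. Past 1.5-fold in DU145 were 701 genes, and 1132 with a pseudocount of 0.1, 1140 without the filter, 440 with a mean of at least 5 FPKM, 1458 with the mean of the 2 siRNAs and 1787 to 2308 with 1 siRNA alone. In 769-P there were 869, and 1489 with a pseudocount of 0.1, 573 with a mean of at least 5 FPKM, 1668 with the mean of the siRNAs and 1723 to 2388 with 1 siRNA. Of the listed calcium genes 4 were counted in DU145, 2 with median-centring and 7 to 12 with 1 siRNA, and 8 in 769-P, 15 with either siRNA alone.

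In limma 16 genes passed in DU145, 1186 without the filter, 4 with a mean of at least 5 FPKM and 0 to 30 with 1 siRNA library left out. In 769-P 12 passed, 148 without the filter and 0 to 7 with a library left out. For the difference between the lines 20 passed, 0 with a pseudocount of 0.1 (319 at an unadjusted p under 0.05), 1202 without the filter, 3 with a mean of at least 5 FPKM, 10 with quantile normalization and 0 to 37 with a library left out. Where either 769-P siRNA library was left out, all 3 counts were 0, with 215 to 578 genes at an unadjusted p under 0.05. The lone library was then assumed to vary like the other groups. Both lines were given 2 SPOP siRNAs under the same numbers, so a number may mark a reagent, and nothing in the labels says that it marks a shared batch or day. The siRNA 2 minus siRNA 1 differences correlated at 0.27 across genes, which are not independent replicates. With a replicate block on them the DU145 count was 18, the 769-P count 14 and that of the difference 8. By direction, all 16 genes passing in DU145 were lower after knockdown, also after subtraction of the olfactory receptor mean. Without the filter 99 were higher and 1087 lower. The 1.5-fold count in DU145 went the other way, with 560 higher and 141 lower. In 769-P 1 passing gene was higher and 11 were lower. The causes of these shifts and directions were not tested. The read count behind an FPKM value is unknown, and only relative depth was estimated, which limits low genes such as ORAI2 in DU145 and STIM2 in 769-P.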
